A study of Mus musculus with 18 samples.

Results

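The BRD9-NUTM1 fusion (BN1) was set against control cells in iLS cells of mouse bone marrow on day 6. BRD9 is a bromodomain subunit of the non-canonical BAF chromatin remodelling complex, and NUTM1 is a protein of male germ cells that binds the acetyltransferases p300 and CBP. Fusions that join NUTM1 to a chromatin reader are known to spread histone acetylation over large domains, and in infant B-cell leukemia NUTM1 is rearranged with several partners. Of the 18 libraries of the series, 6 make up the comparison: 3 BN1 libraries (CD45.2+ cells carrying BRD9-NUTM1) and 3 control libraries (CD45.2+ cells with no fusion named, called Mock in the descriptions), all of C57BL/6 bone marrow sorted by flow cytometry. The 3 day 6 libraries of cells with AFF1-NUTM1 (AFFN1) added to the estimate of spread and were used to test where the fusions differ. The labels give neither the vector, promoter or clonality of the cells nor the age or number of the mice, do not spell out iLS, and do not say that replicates are separate cultures or animals, so p-values measure the spread between these libraries.

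Poly(A) RNA was read in 14182539 to 17702578 counts per library, and levels are given as CPM (counts divided by the TMM-scaled library total, times 1000000), which are not corrected for gene length. The leading axis of variation (43.8% of the variance) put the BN1 libraries on one side and the control libraries on the other. Endogenous Brd9 did not mark the fusion, at 68.8, 74.6 and 70.8 CPM in the BN1 libraries and 70.3, 70.8 and 77.1 CPM in the control libraries (log2 fold change -0.03, adjusted p = 0.831). Mouse Nutm1 had 0 reads in BN1 and 2 in control, and the labels do not give the species of the NUTM1 part, so neither gene checks the labels. Summed over 16 pro-B and pre-B markers, BN1 libraries held 12100 to 12800 CPM and control libraries 8180 to 12200 CPM, and 6 of the 16 tested were higher in BN1 and 0 lower. Markers of other cells were far below this sum. The 20 neutrophil, monocyte and macrophage markers summed to 101 to 207 CPM in BN1 and 96.2 to 229 CPM in control, with Ctsg, Elane, Mpo, Ngp and S100a9 at 0 reads. T cell markers summed to 130 to 157 CPM in BN1 and 94.3 to 129 CPM in control, with Cd3g, Cd8a, Cd8b1 and Trbc2 at 0 reads. NK and innate lymphoid markers reached 78 to 85.1 CPM in BN1 against 25.6 to 66.7 CPM in control, with Gzma, Gzmb, Ncr1 and Tbx21 at 0 reads. The erythroid and megakaryocyte sum was 34.1 to 35.8 CPM in BN1 and 3.55 to 4.13 CPM in control, to which Car2, a carbonic anhydrase, gave a mean of 28.6 CPM in BN1 and 0.9 CPM in control, with Car1, Hba-a1 and Slc4a1 at 0 reads. Dendritic cell markers gave 1080 to 1240 CPM in BN1 and 686 to 923 CPM in control, mast cell and basophil markers 170 to 194 CPM in BN1 and 196 to 292 CPM in control, stromal markers 163 to 246 CPM in BN1 and 178 to 321 CPM in control, and plasma cell markers 380 to 428 CPM in BN1 and 328 to 369 CPM in control. By gene, 0 of 9 tested myeloid markers and 0 of 2 of mast cells were called. Higher were 2 of 6 of T cells, 2 of 5 of NK and innate lymphoid cells, 4 of 7 of dendritic cells and 2 of 6 of plasma cells, with 1 lower in each. Of erythroid and megakaryocyte markers 2 of 4 were higher, and 1 of 12 of stroma was lower. These counts, and that of the pro-B and pre-B markers, stand against 8.83% of all tested genes called higher and 8.53% lower. The dendritic cell markers include Ccr9, Ccr7, Ly6c2 and Bst2, which are described later. The part of these sums in any result was not tested. Fewer cells of a type and less RNA per cell cannot be told apart in such bulk samples.

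The change in BN1 cells was broad and mostly moderate. Calls are genes with an adjusted p under 0.05 in edgeR's quasi-likelihood test, with Benjamini-Hochberg adjustment over all 12068 tested genes. By this rule 2095 genes (17.4%) were called, 1066 higher (8.83%) and 1029 lower (8.53%) in BN1, and 824 of them by more than 2-fold. Counts in every gene list below stand against these shares of all tested genes. The size of called changes went with level, and so did the standard error (SE) of the log2 fold change. Its median was 0.55 under 1 CPM and 0.10 over 500 CPM, so weakly read genes could be called only at large changes. Of the 866 genes under 1 CPM, 131 were called (15.1%), all by more than 2-fold, with a median absolute log2 fold change of 2.62. Of the 279 genes over 500 CPM, 39 were called (14%), 0 of them by more than 2-fold, with a median of 0.45. Among the 4667 genes with a mean of at least 50 CPM over the 6 libraries, 749 (16%) were called, and 682 of these changed by less than 2-fold, 302 higher and 380 lower. The number called was 1141 without BN1 1, 1246 without control 1, 1360 without control 2 and 3495 without control 3. For the 682 moderate changes it was 238 to 1442 when each library was left out in turn, lowest without BN1 1 and highest without control 3. Unless an adjusted p is given for a fit without a library, a gene written as higher or lower, risen or fallen kept its call without each of the 6 libraries in turn.

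**Figure D1:**
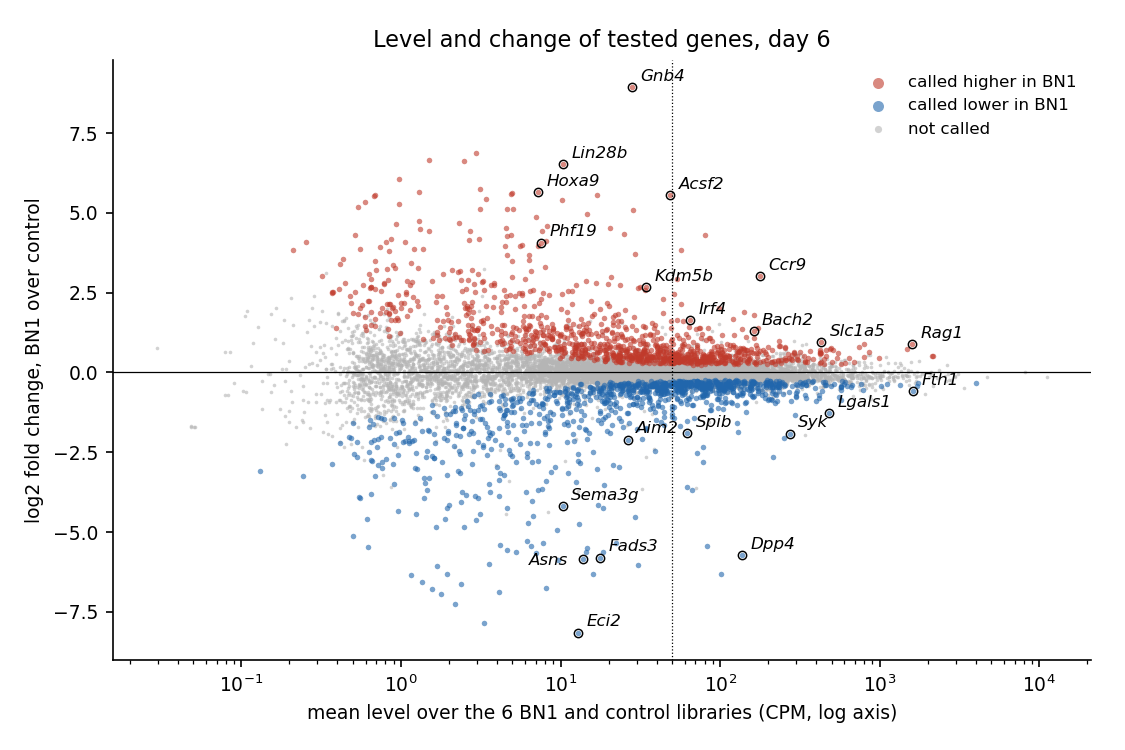
Each point is a tested gene, with its mean level over the 6 BN1 and control libraries (CPM, log axis) against its log2 fold change, BN1 over control. Red points were called higher and blue points lower in BN1, grey points were not called, the dotted line marks 50 CPM, and 24 genes with 0 reads in a group are not drawn. Called changes over 500 CPM were all within 2-fold, while called genes under 1 CPM all changed by more. The median SE of the log2 fold change was 0.10 over 500 CPM and 0.55 under 1 CPM, where small changes could not be called.

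Many genes of oxidative phosphorylation were lower in BN1 cells, by small amounts. This pathway passes electrons along respiratory complexes I to IV of the inner mitochondrial membrane and uses the proton gradient to drive ATP synthase, complex V. Of 77 nuclear-encoded subunits, all tested, 46 were lower and 0 higher, against 8.53% of all genes lower, and their median log2 fold change was -0.40 against -0.02 over all tested genes. These genes are short, and the share lower among short genes is given below. The groups did not overlap in 64 of the 77, against 33.9% of all tested genes. Lower were 23 of 37 subunits of complex I, 1 of 4 of complex II, 4 of 9 of complex III, 9 of 10 of complex IV and 9 of 17 of ATP synthase. Atp5h, a stator subunit of ATP synthase (ENSMUSG00000034566; mm10 chr11:115415689-115419962, minus strand), stood at 90.7, 98.5 and 92 CPM in the BN1 libraries and 123, 130 and 115 CPM in the control libraries. All 3 BN1 values lay below all 3 control values, a log2 fold change of -0.39 (SE 0.07, adjusted p = 0.00543). Ndufa4, counted above with complex I by its name and known as a subunit of cytochrome oxidase, had 77, 92.4 and 75.8 CPM in BN1 against 112, 127 and 113 CPM in control (log2 fold change -0.52). Cox7b of complex IV had 55.6, 68.9 and 66.9 CPM in BN1 against 93.8, 113 and 81.1 CPM in control (log2 fold change -0.59). Ndufb8 and Atp5j2 fell by 0.56 and 0.52 on the log2 scale, again without overlap.

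The count of lower subunits depended on the libraries. It was 9 without BN1 1, 23 without BN1 3, 15 without control 1 and 13 without control 2, and 21 in a fit of the 6 libraries alone, and no subunit was called higher in these fits. Of the 13 proteins encoded by mitochondrial DNA, 4 were lower and 0 higher, with a median of -0.33. mt-Nd1 had 1571, 1437 and 1424 CPM in BN1 and 2047, 2221 and 1616 CPM in control (adjusted p = 0.0419). The 4 calls were lost without BN1 1, BN1 3, control 1 or control 2, for mt-Nd1 at an adjusted p of 0.0803, 0.111, 0.137 and 0.141, and 0.11 without BN1 2. Mitochondrial RNA made up 2.26 to 2.51% of the counts in BN1 and 2.31 to 2.66% in control.

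Some genes of the mitochondrial ribosome and the proteasome were lower too, while genes of the cytosolic ribosome and of ribosome biogenesis were rarely called. Mitochondrial ribosomal proteins were lower for 25 of 78 genes and higher for 0 (median -0.34). Mrpl48, of the large mitochondrial subunit, had 17.3, 20.1 and 20 CPM in BN1 and 37.6, 40.9 and 36 CPM in control (SE of the log2 fold change 0.10, adjusted p = 0.000132). Without BN1 1, BN1 2, BN1 3, control 1, control 2 and control 3 the count was 5, 14, 8, 8, 6 and 45. Proteasome genes were lower for 13 of 46 and higher for 0 (median -0.31 on the log2 scale), with counts of 1, 5, 3, 1, 2 and 30 in the same fits. The member with the smallest p was Psmb8, a catalytic subunit of the immunoproteasome, at 168, 188 and 174 CPM in BN1 and 234, 242 and 264 CPM in control (log2 fold change -0.48, adjusted p = 0.00222). Of cytosolic ribosomal protein genes 3 of 83 were lower (3.61%, against 8.53% of all tested genes) and 0 higher. Their median was -0.13, and 7 had a positive log2 fold change. Their lower count was 0 without BN1 1, 1 without BN1 3, control 1 or control 2 and 5 without control 3. Of 42 genes of ribosome biogenesis 0 were called, with a median of -0.24 and 2 positive log2 fold changes, and 7 were lower without control 3.

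**Figure D2:**
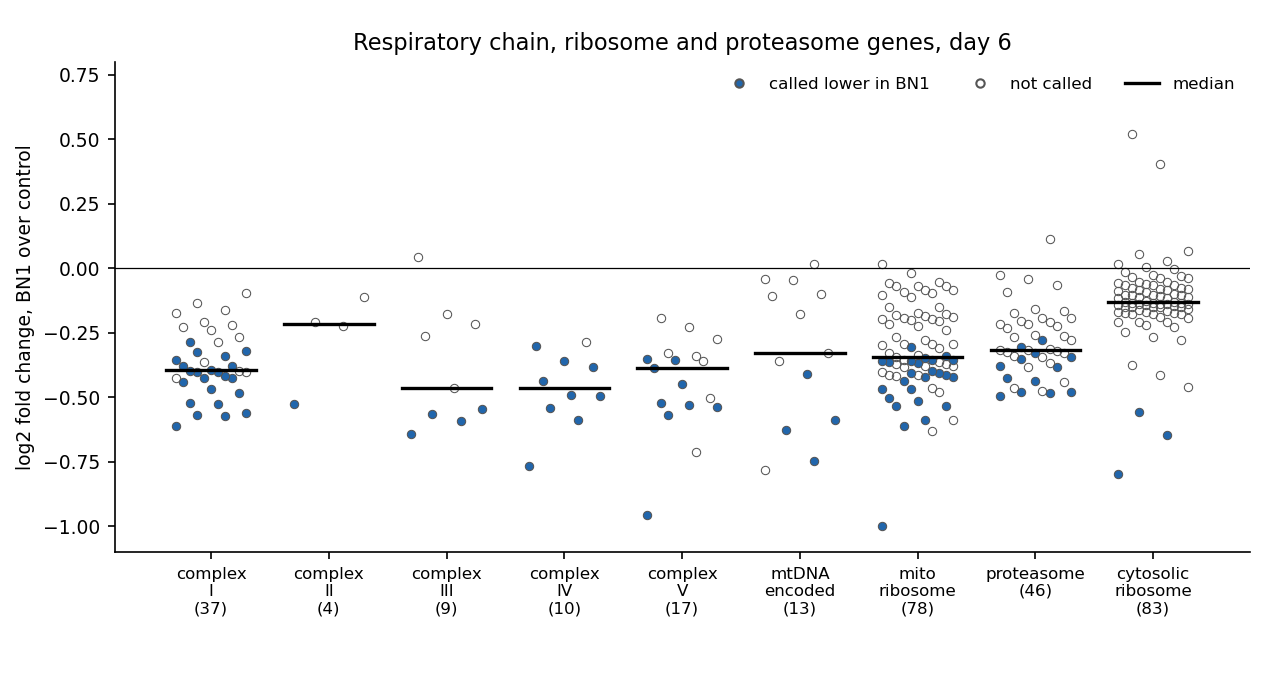
Each point is 1 tested gene, with its log2 fold change (BN1 over control) on the vertical axis and its complex or machine on the horizontal axis, the number tested in brackets. Filled points were called lower in BN1, open points were not called and bars are medians. The medians of complexes I and V are -0.40 and -0.39, those of complexes III and IV lie lower, and that of the cytosolic ribosome is -0.13.

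Exonic length moved with these results. Over 10 equal classes of genes ranked by exonic length, the median log2 fold change was -0.14 in the shortest class (204 to 1657 bases) and 0.09 in the longest (9759 bases or more). In the shortest class 56 genes were higher and 147 lower in BN1, and in the longest 186 were higher and 70 lower. Among the 229 genes of the shortest class with a mean of at least 50 CPM, 58 were lower (25.3%), with a median log2 fold change of -0.20. The respiratory list has a median exonic length of 1756 bases, cytosolic ribosomal proteins 1770 and all tested genes 4371. Relative to the mean of each gene over the 6 BN1 and control libraries, the shortest class had a median of -0.13, -0.01 and -0.05 in the BN1 libraries. In the control libraries it was 0.05, 0.06 and 0.05. With each library's trend on length entered as an offset, a fit added after seeing the data, 27 of the 77 respiratory subunits were still lower and 0 higher, against 46 without it, 16 mitochondrial ribosomal proteins against 25, and 10 proteasome genes against 13.

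**Figure D3:**
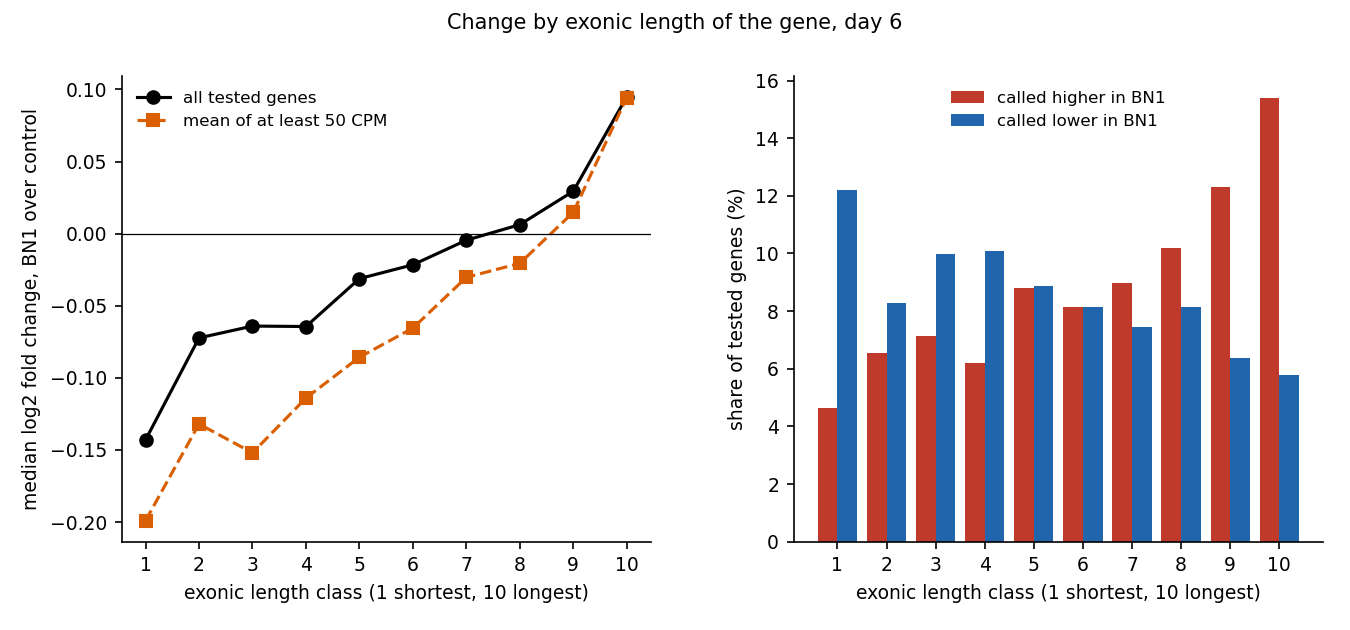
Tested genes were ranked by exonic length into 10 classes, from the shortest (1) to the longest (10). The left panel gives the median log2 fold change (BN1 over control) of all tested genes (circles) and of those with a mean of at least 50 CPM (squares), and the right panel the share called higher (red) and lower (blue) in BN1. The median climbs from -0.14 in class 1 to 0.09 in the last over all tested genes.

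Nuclear respiratory factor 1 (NRF1), an activator of many respiratory genes, binds GC-rich palindromes near their start sites. Matches to GCGCA and GCGC with any 1 base between them were searched on both strands of RefSeq promoter windows (GRCm38.p6, 250 bases before to 50 after the start). They occur in 17 of the 63 respiratory genes that have a window (27%), among them 9 of 39 that were lower, in 12.2% of all tested genes with a window and in 4.6% of all windows. A link between the motif and the change was not tested. Windows of the 3 lower genes with the smallest p that hold the motif are shown in full for their sequence context. These 3 genes were chosen after their values were seen, and capitals mark the match. Ndufs5 and Ndufa11, accessory subunits of complex I, had log2 fold changes of -0.38 and -0.42. The call of Ndufs5 was lost without BN1 1 (adjusted p = 0.0501), and that of Ndufa11 without BN1 1 (adjusted p = 0.0666) and without control 1 (adjusted p = 0.0675). The windows lie at chr11:115419870-115420169 (Atp5h, minus strand), chr4:123718137-123718436 (Ndufs5, minus strand) and chr17:56717512-56717811 (Ndufa11, plus strand).
Atp5h: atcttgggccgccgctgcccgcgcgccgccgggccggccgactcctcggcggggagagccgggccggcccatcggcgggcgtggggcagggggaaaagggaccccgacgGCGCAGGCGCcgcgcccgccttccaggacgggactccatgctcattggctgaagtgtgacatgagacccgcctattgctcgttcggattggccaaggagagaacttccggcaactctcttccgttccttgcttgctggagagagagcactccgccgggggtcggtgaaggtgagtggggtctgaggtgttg
Ndufs5: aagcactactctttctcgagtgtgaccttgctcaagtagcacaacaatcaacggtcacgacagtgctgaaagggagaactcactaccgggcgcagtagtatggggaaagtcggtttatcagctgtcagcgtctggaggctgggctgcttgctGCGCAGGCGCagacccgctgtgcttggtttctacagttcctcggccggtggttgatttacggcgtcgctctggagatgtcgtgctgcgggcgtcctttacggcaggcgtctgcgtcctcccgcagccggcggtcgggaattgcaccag
Ndufa11: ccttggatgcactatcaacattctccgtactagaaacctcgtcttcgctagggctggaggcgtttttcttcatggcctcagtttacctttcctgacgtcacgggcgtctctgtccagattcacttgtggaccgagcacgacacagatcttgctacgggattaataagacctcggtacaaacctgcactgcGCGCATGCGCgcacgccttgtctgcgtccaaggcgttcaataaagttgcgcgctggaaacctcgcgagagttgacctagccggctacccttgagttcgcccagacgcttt

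Some of the antioxidant genes were lower. Glutathione and thioredoxin systems keep proteins reduced and remove peroxides, and the transcription factor Nrf2 raises many of their genes. Of 31 tested members 14 were lower and 2 higher in BN1, with a median log2 fold change of -0.40. Gclc, the catalytic subunit of the rate-limiting enzyme of glutathione synthesis (ENSMUSG00000032350; mm10 chr9:77754535-77794485), had 100, 100 and 108 CPM in BN1 and 165, 149 and 174 CPM in control. The groups were well apart, with a log2 fold change of -0.66 (SE 0.08, adjusted p = 0.000459). Gpx1, a glutathione peroxidase, had 198, 226 and 215 CPM in BN1 and 326, 333 and 321 CPM in control (log2 fold change -0.62, adjusted p = 0.000331). Transferases fell further: Gstt2, which conjugates glutathione to toxic compounds, averaged 15.9 CPM in BN1 and 52.5 CPM in control, and the membrane-bound Mgst1 1.85 CPM in BN1 and 12.7 CPM in control. Gstm1, another transferase, went the other way, with 17.1, 20.5 and 19.9 CPM in BN1 against 7.22, 5.93 and 7.75 CPM in control (log2 fold change 1.45), and so did the ER peroxiredoxin Prdx4 (log2 fold change 0.46). Hmox1, a sensitive Nrf2 target, had a mean of 5.95 CPM in BN1 and 5.91 CPM in control and was not called. The number lower was 5 without BN1 1, 9 without BN1 3, 5 without control 1 and 9 without control 2. The antioxidant response element, searched as TGACNNNGC on both strands, is in the windows of 8 of 26 members (30.8%), 5 of the 12 lower members with a window, and 16.7% of tested genes.

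Genes of nutrient metabolism were called in both directions in some lists and only lower in others. Among 33 genes of fatty acid oxidation 4 were higher and 7 lower, and the largest changes ran in opposite directions. Acsf2, an acyl-CoA synthetase, had 94.3, 102 and 90.2 CPM in BN1 and 2.15, 1.61 and 2.21 CPM in control. Eci2, an isomerase for unsaturated fatty acids, was nearly absent, at 0.0575, 0.0645 and 0.127 CPM in BN1 and 23.8, 25.2 and 27.9 CPM in control. In AFFN1 cells both stood near their control levels, with means of 1.85 CPM for Acsf2 and 19.6 CPM for Eci2, and BN1 differed from AFFN1 in both (adjusted p = 2.27e-08 each). Decr1 and Decr2, reductases for unsaturated fatty acids, rose by 0.84 and 1.70 on the log2 scale, and Slc25a20, which carries acylcarnitines into mitochondria, fell by 0.91. Without BN1 1 or without BN1 3 the list had 4 lower genes. Of 19 genes of fatty acid synthesis and desaturation, Fads3, Fads2 and Elovl7 were lower and 0 were higher, with 7 lower and 1 higher without control 3. Fads2 was not called without BN1 1 (adjusted p = 0.0542), nor Elovl7 without BN1 2, BN1 3, control 1 or control 2 (adjusted p 0.111, 0.0925, 0.0994 and 0.137). Fads3, a desaturase, had 0.69, 0.709 and 0.446 CPM in BN1 and 32.8, 37.9 and 33.8 CPM in control (log2 fold change -5.80, SE 0.22, adjusted p = 1.74e-07).

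Single amino acid genes changed in both directions, and of those named here Asns changed most. Asns, asparagine synthetase, had 1.03, 0 and 0.318 CPM in BN1 and 26.2, 36.3 and 19.5 CPM in control (log2 fold change -5.84, SE 0.78, adjusted p = 0.00124), with a mean of 8.51 CPM in AFFN1. Without BN1 1 the log2 fold change was -7.34. Ass1, which joins aspartate to citrulline, fell to 86.9, 104 and 98.4 CPM in BN1, against 194, 182 and 190 CPM in control. Slc1a5, the main glutamine and neutral amino acid carrier (ENSMUSG00000001918; mm10 chr7:16781340-16798274), was higher, at 548, 542 and 615 CPM in BN1 and 319, 300 and 263 CPM in control (log2 fold change 0.95, SE 0.10, adjusted p = 0.000127). Ivd, of leucine breakdown, rose by 0.90 on the log2 scale. Trib3, a pseudokinase induced by amino acid shortage, averaged 11.2 CPM in BN1 and 4.41 CPM in control. Of the 18 tested genes of the amino acid response 2 were higher and 2 lower, and in the fits without a library 2 or 3 were higher and 1 to 4 lower, most without BN1 3 or control 3.

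Sugar and iron handling changed in part. Of 23 genes of glucose uptake, glycolysis and lactate 1 was higher and 3 lower, with a median of -0.33. The share called was 17.4%, the same as over all tested genes. Pfkp, the platelet-type phosphofructokinase, had 2.7, 2.06 and 1.59 CPM in BN1 and 16.4, 23.9 and 28.5 CPM in control (log2 fold change -3.43), and Slc16a1, a lactate carrier, had 256, 299 and 376 CPM in BN1 and 155, 177 and 138 CPM in control (log2 fold change 0.99). The list had 12 lower genes without control 3, and 1 without BN1 1, BN1 2, BN1 3 or control 1. Fth1, the heavy chain of the iron store ferritin, stood at 1142, 1339 and 1406 CPM in BN1 and 1822, 1825 and 2221 CPM in control (log2 fold change -0.59). Fech, which inserts iron into haem, fell by 1.35 on the log2 scale, while Blvrb, a biliverdin reductase, rose by 1.20.

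Some regulators of the B lineage changed. Early B cells are specified by Ebf1 and Pax5, which act with Ikaros-family and Ets-family factors, and pre-B receptor signals through Syk then end expansion and start light chain rearrangement. Of 28 tested transcription factors of the lineage 7 were higher and 2 lower (median 0.17). Bach2, a repressor of plasma and myeloid fates (ENSMUSG00000040270; mm10 chr4:32238804-32586108), had 263, 190 and 240 CPM in BN1 and 93.2, 75.7 and 111 CPM in control (log2 fold change 1.31, SE 0.18, adjusted p = 0.000766). Irf4, which restrains pre-B expansion, had 117, 72.3 and 106 CPM in BN1 and 29.6, 22.6 and 41.9 CPM in control (log2 fold change 1.64). Ikzf1, which encodes Ikaros, stood at 543, 534 and 505 CPM in BN1 against 345, 281 and 343 CPM in control (log2 fold change 0.71, adjusted p = 0.00151). Each of these 3 was higher in every BN1 library than in every control library. Spib, an Ets factor close to PU.1, was lower, at 39, 24 and 16.1 CPM in BN1 and 77.4, 74.6 and 143 CPM in control (log2 fold change -1.90, adjusted p = 0.00585), and was not called with the replicate number as a block in the 6 libraries (adjusted p = 0.115). Ebf1 had 637, 539 and 746 CPM in BN1 and 471, 430 and 608 CPM in control and was not called (adjusted p = 0.148). The number higher was 4 without BN1 1, BN1 3 or control 2 and 12 without control 3, and 1 member was lower without BN1 1 or control 1.

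Signalling from the pre-B receptor showed 1 large loss among well-expressed genes. Syk, the kinase next to the receptor (ENSMUSG00000021457; mm10 chr13:52583173-52648792), had 139, 109 and 95.7 CPM in BN1 and 451, 365 and 482 CPM in control. Every BN1 library lay below every control library by a wide gap, a log2 fold change of -1.92 (SE 0.16, adjusted p = 3.06e-05). In AFFN1 Syk averaged 473 CPM, and BN1 minus AFFN1 was -2.04 on the log2 scale (adjusted p = 3.33e-05). Ighm, the mu heavy chain, had 2501, 2423 and 2738 CPM in BN1 and 1751, 1572 and 1976 CPM in control (log2 fold change 0.53). The surrogate light chain gene Igll1 averaged 1516 CPM in BN1 and 1513 CPM in control and Vpreb1 1384 CPM in BN1 and 1350 CPM in control, and neither was called. In all 4 of 20 members were higher and 3 lower. Those called higher were 2 without BN1 1 or BN1 2 and 1 without BN1 3, control 1 or control 2, and 1 was lower without BN1 3 or control 1.

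Rag1, a subunit of the recombinase, had 2571, 2122 and 1547 CPM in BN1 and 1283, 893 and 1178 CPM in control (log2 fold change 0.90, adjusted p = 0.0195), and the call was lost without BN1 1 (adjusted p = 0.0786) and without control 2 (adjusted p = 0.0635). Dntt, which adds bases at the joins, averaged 139 CPM in BN1 and 543 CPM in control, with 358, 172 and 1098 CPM in the control libraries, and was not called (adjusted p = 0.078).

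Among 11 tested genes of later B cells 5 were higher and 2 lower. Tnfrsf13c, the receptor for the survival factor BAFF, averaged 13.7 CPM in BN1 and 6.24 CPM in control. Cd40, a costimulatory receptor, averaged 0.314 CPM in BN1 and 1.5 CPM in control, and Cd55, which shields cells from complement, 0.749 CPM in BN1 and 12.6 CPM in control. The log2 fold change of Cd55 was -4.01, and -5.26 without BN1 1. H2-Ab1, a chain of MHC class II, had 75 reads over the BN1 libraries and 0 over the control libraries, at least 24.2-fold higher against a floor of 3 counts over the group. H2-Oa, which moderates peptide loading, rose by 1.08 on the log2 scale, and H2-DMa, which carries loading out, fell by 1.16. The higher later B-cell genes numbered 3 without BN1 1, BN1 3 or control 1 and 2 without control 2.

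**Figure D4:**
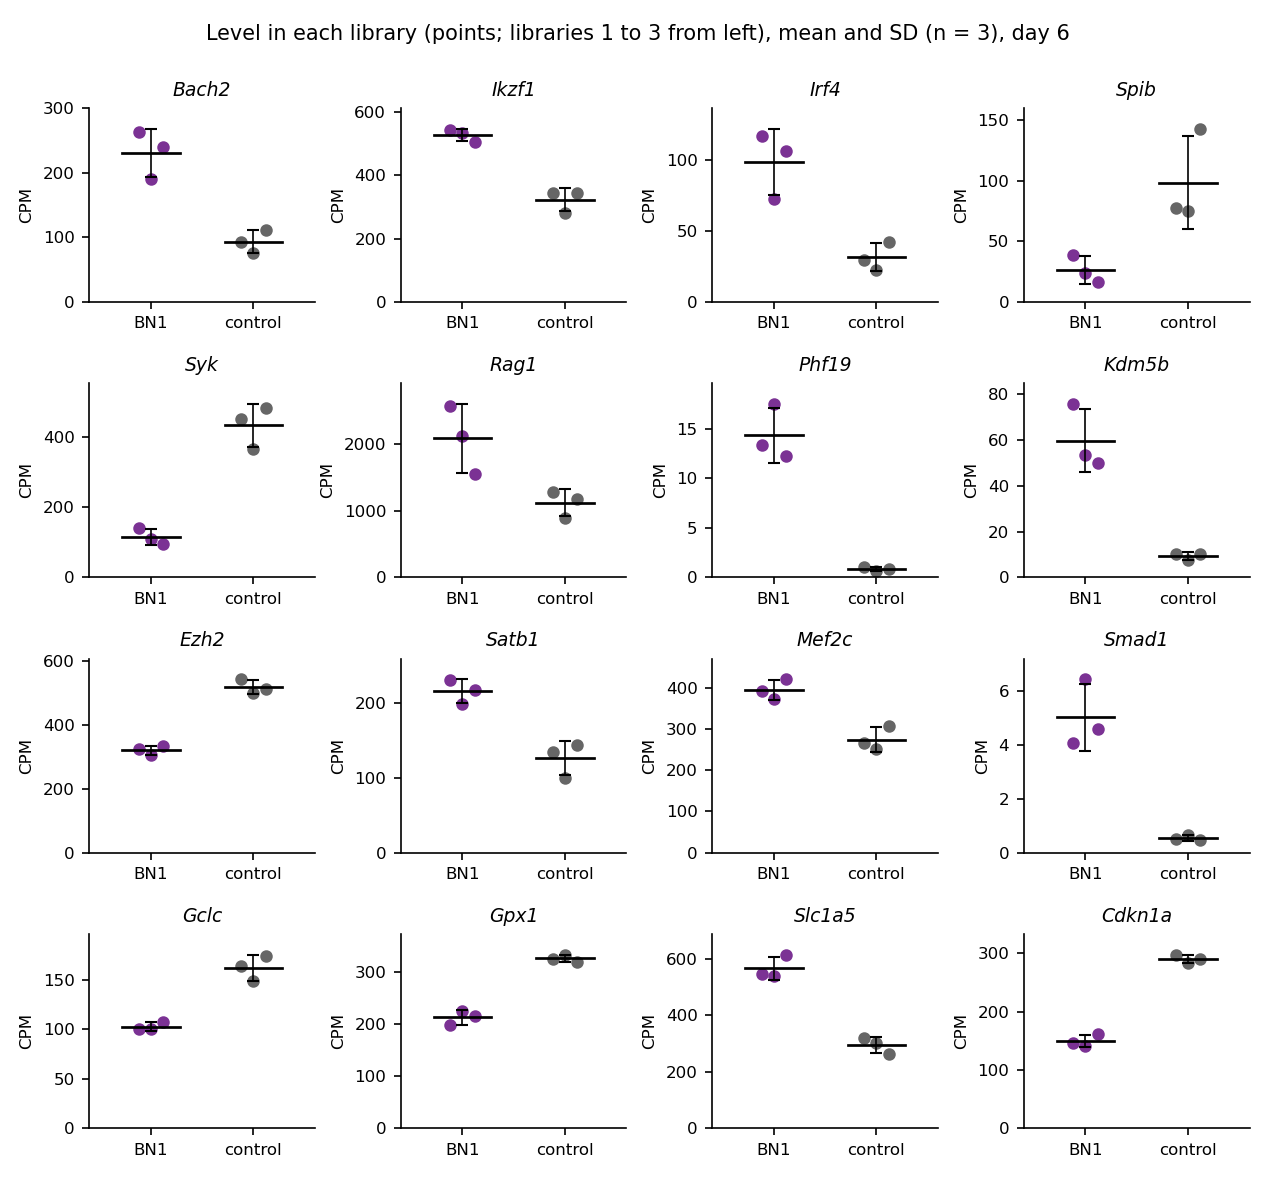
Each panel gives the level of 1 gene (CPM, axis from 0) in the 3 BN1 libraries (purple, left) and the 3 control libraries (grey, right), with mean and SD (n = 3 each). In every panel the BN1 and control points do not overlap: Bach2, Ikzf1, Irf4, Rag1, Phf19, Kdm5b, Satb1, Mef2c, Smad1 and Slc1a5 are higher in BN1, and Spib, Syk, Ezh2, Gclc, Gpx1 and Cdkn1a lower.

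Polycomb genes changed in both directions. Polycomb complexes keep developmental genes silent: PRC2 methylates histone H3 on lysine 27 through Ezh2, accessory proteins such as Phf19 steer it, and PRC1 holds a Pcgf protein. Of 31 members, all tested, 7 were higher and 4 lower. Phf19 (ENSMUSG00000026873; mm10 chr2:34893757-34914026, minus strand) had 13.3, 17.5 and 12.2 CPM in BN1 and 1.08, 0.586 and 0.849 CPM in control, 16.8-fold higher (SE 0.25 on the log2 scale, adjusted p = 3.99e-06). Ezh2 had 323, 306 and 333 CPM in BN1 and 541, 500 and 511 CPM in control (log2 fold change -0.69, adjusted p = 0.000376). Ezh2 and Phf19 thus moved in opposite directions, each with no overlap of libraries. Pcgf5 averaged 43 CPM in BN1 and 78.6 CPM in control and Pcgf2 19.1 CPM in BN1 and 12.7 CPM in control. With the replicate number as a block 3 were higher in the 9 libraries and 6 in the 6 libraries, where 3 were higher with no block. The higher members were 2 without BN1 1, 4 without BN1 3, 3 without control 1 and 4 without control 2. BN1 minus AFFN1 was -0.65 for Ezh2 (log2, adjusted p = 0.000753) and 0.92 for Phf19 (adjusted p = 0.0149).

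Of 17 tested lysine demethylases 3 were higher and 0 lower, 17.6% called against 17.4% of all tested genes. In the fits without a library 2 to 4 were higher. Kdm5b, which removes methyl groups from lysine 4 of histone H3 (ENSMUSG00000042207; mm10 chr1:134560171-134635285), had 75.7, 53.6 and 50.1 CPM in BN1 and 10.3, 7.47 and 10 CPM in control (log2 fold change 2.68, SE 0.20, adjusted p = 1.72e-05). Kdm7a, a demethylase of histone H3 lysines, averaged 41.3 CPM in BN1 and 15.1 CPM in control (log2 fold change 1.45). In the complex that BRD9 itself belongs to, of 26 BAF subunits 1, Arid1b, was higher (log2 fold change 0.60, adjusted p = 0.0109) and 0 were lower, with 3 higher and 4 lower without control 3. Smarca4, the ATPase, averaged 1986 CPM in BN1 and 1555 CPM in control (adjusted p = 0.0805). The acetyltransferase genes Ep300 (adjusted p = 0.297) and Crebbp (0.251) were not called. The super elongation complex (21 tested) and the KMT2 methyltransferases with menin and Dot1l (15 tested) had 0 calls by edgeR in the 9 libraries. In the 6 libraries alone the second had 3 higher genes, also with the replicate number as a block, and with that block the first had 1 higher in the 9 libraries and 2 in the 6 libraries. Without control 3 the first had 2 higher and 1 lower and the second 2 lower genes, without BN1 3 the first and without BN1 2 the second had 1 higher, and DESeq2 called 1 and 4 higher.

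Some of the progenitor genes that KMT2A fusions often bind were higher beyond the Hoxa cluster. Of 15 tested members 7 were higher and 0 lower, with a median log2 fold change of 0.43, and 5 to 8 were higher when each library was left out. Satb1, a genome organiser of lymphoid progenitors, had 230, 198 and 218 CPM in BN1 and 135, 100 and 143 CPM in control (log2 fold change 0.77, adjusted p = 0.00528). Mef2c, a factor of lymphoid and leukemic progenitors, had 392, 372 and 420 CPM in BN1 and 265, 250 and 308 CPM in control (log2 fold change 0.52). Both are well expressed and moved by less than 2-fold without overlap. Pbx3 and Pbx2, partners of Hox proteins, rose by 0.84 and 0.42 on the log2 scale. Hmga2, a chromatin protein of the fetal programme and a target of the Lin28b pathway, had 20.3, 24.1 and 13 CPM in BN1 and 3.99, 3.52 and 2.26 CPM in control (log2 fold change 2.56, adjusted p = 0.000194). Cd27, a receptor of primed lymphoid progenitors, averaged 7.6 CPM in BN1 and 1.23 CPM in control.

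Interferon-induced genes changed in both directions. Type I interferon acts through STAT factors with Irf9, which bind the interferon-stimulated response element (ISRE). Of 32 response genes 8 were higher and 3 lower (median 0.34 on the log2 scale). Usp18, which damps the receptor, had 140, 167 and 125 CPM in BN1 and 74.3, 69.6 and 88.8 CPM in control (log2 fold change 0.89, adjusted p = 0.00325). Ddx58, the RNA sensor RIG-I, had 129, 134 and 119 CPM in BN1 and 76.7, 66.8 and 86.8 CPM in control (log2 fold change 0.73). Bst2, which tethers virus particles, was lower, at 74.7, 83.3 and 86.1 CPM in BN1 and 126, 142 and 192 CPM in control (log2 fold change -0.92), as was the secreted Lgals3bp (log2 fold change -0.69). Not called were Isg15 (log2 fold change 0.43) and Irf7 (0.46). The count higher was 4 without BN1 1, 5 without BN1 2, 3 without control 1, 5 without control 2 and 24 without control 3. DESeq2 called 16 higher.

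Other clustered immune gene families held calls too. All 8 genes of the Gimap cluster, GTPases of lymphocytes on chromosome 6, had positive log2 fold changes and 7 were higher. Gimap3 had 88.4, 70.3 and 61.1 CPM in BN1 and 19, 8.28 and 16.6 CPM in control (log2 fold change 2.31, adjusted p = 0.000627). Without BN1 1, control 1 or control 2 the number was 4. In the Ifi200 cluster of chromosome 1, 6 of 11 were higher and 1 lower. Ifi203 had 658, 570 and 590 CPM in BN1 and 354, 316 and 422 CPM in control (log2 fold change 0.73), while Aim2, a sensor of cytosolic DNA, had 12.7, 9.48 and 7.64 CPM in BN1 and 41.4, 46.4 and 41 CPM in control (log2 fold change -2.11, SE 0.17, adjusted p = 2.53e-05). The number higher was 3 without BN1 1 or control 1. Of 20 Gbp, Irg and Schlafen genes 1 was higher and 5 lower. Gbp3, a guanylate-binding GTPase induced by interferon, had 24, 33.4 and 23.2 CPM in BN1 and 49.9, 64.6 and 50.7 CPM in control. The Schlafen genes Slfn8 and Slfn9 went opposite ways, at 148, 122 and 118 CPM in BN1 and 69.2, 67.6 and 82.1 CPM in control for Slfn8, and 27.8, 30.8 and 24.1 CPM in BN1 and 68.8, 78 and 70.9 CPM in control for Slfn9. Without control 3, 3 members of that list were higher.

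An ISRE, searched on both strands as TTTC and TTTC with any 2 bases between them, stands in the windows of 12 of the 24 response genes with a window (50%), against 3.86% of tested genes. It is in 2 of 4 higher genes with a window and 2 of 3 lower ones, so windows with the motif are found on both sides. The windows of Bst2, lower in BN1, and of Ddx58 and Ifit1, higher in BN1, show this (Bst2 chr8:71537423-71537722, minus strand; Ddx58 chr4:40239776-40240075, minus strand; Ifit1 chr19:34640639-34640938, plus strand). Ifit1, which binds foreign RNA ends, averaged 41.1 CPM in BN1 and 22 CPM in control. Capitals mark matches, on either strand, which merge where they overlap.
Bst2: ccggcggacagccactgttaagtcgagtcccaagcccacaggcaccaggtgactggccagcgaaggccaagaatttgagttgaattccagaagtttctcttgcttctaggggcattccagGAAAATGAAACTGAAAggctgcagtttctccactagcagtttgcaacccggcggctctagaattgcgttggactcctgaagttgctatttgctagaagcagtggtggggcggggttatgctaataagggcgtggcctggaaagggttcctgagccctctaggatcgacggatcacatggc
Ddx58: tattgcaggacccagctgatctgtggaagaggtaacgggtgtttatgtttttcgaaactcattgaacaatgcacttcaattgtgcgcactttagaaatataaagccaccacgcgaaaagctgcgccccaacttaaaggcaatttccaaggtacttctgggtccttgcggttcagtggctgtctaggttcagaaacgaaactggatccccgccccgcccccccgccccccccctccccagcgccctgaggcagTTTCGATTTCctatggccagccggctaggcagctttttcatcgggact
Ifit1: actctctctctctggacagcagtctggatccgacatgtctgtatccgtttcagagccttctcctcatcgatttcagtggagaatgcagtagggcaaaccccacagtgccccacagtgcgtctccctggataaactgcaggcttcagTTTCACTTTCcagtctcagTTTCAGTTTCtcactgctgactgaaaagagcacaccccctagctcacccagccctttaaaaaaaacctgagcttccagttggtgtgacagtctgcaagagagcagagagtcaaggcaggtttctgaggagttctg

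Some receptors for migration and cytokines were higher. Of 19 tested chemokines and receptors 4 were higher and 0 lower, all of them receptors. Ccr9, which guides progenitors to thymus and gut, had 295, 338 and 312 CPM in BN1 and 51.5, 26.6 and 38.8 CPM in control (log2 fold change 3.01, adjusted p = 2.18e-05), with a mean of 306 CPM in AFFN1 (BN1 minus AFFN1 0.04 on the log2 scale, adjusted p = 0.928). Cxcr5, which guides B cells to follicles, had 13.9, 14.6 and 14.3 CPM in BN1 and 1.39, 3.66 and 2.94 CPM in control, and was higher in BN1 than in AFFN1 by 2.82 on the log2 scale (adjusted p = 0.000832). Ccr7, which guides cells to lymph nodes, rose by 1.20 on the log2 scale. Of 23 tested interleukin receptor genes 3 were higher and 1 lower, 17.4% called, the same share as over all tested genes. Both chains of the interleukin 18 receptor were higher: Il18rap had 124, 115 and 82.5 CPM in BN1 and 43.7, 40.4 and 39 CPM in control, and Il18r1 16.7, 12.1 and 7.32 CPM in BN1 and 1.84, 2.86 and 3.17 CPM in control. The lower one, Il2rb, a shared chain of the receptors for interleukins 2 and 15 and also an NK cell marker, had 0.23, 0.193 and 0.318 CPM in BN1 and 1.01, 1.61 and 0.679 CPM in control (log2 fold change -2.10, adjusted p = 0.0265). Its adjusted p was 0.0994 without BN1 1, 0.0788 without BN1 2, 0.0531 without BN1 3, 0.0683 without control 1 and 0.1 without control 2. Of 19 tested tumour necrosis factor family and receptor genes 5 were higher and 2 lower, with 0 lower without BN1 1, control 1 or control 2 and 1 lower without BN1 3. Tnfrsf19 had 245, 240 and 269 CPM in BN1 and 94.7, 42.3 and 81.1 CPM in control (log2 fold change 1.79).

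Semaphorins and plexins, ligands and receptors that steer cell movement, were lower for 7 of 17 and higher for 2. Sema3g, a secreted ligand, had 1.09, 1.1 and 1.02 CPM in BN1 and 17.3, 19.3 and 22.1 CPM in control (log2 fold change -4.18, adjusted p = 3.01e-07). Plxnb2, a receptor, had 160, 128 and 128 CPM in BN1 and 221, 205 and 198 CPM in control, and Plxnc1 fell by 0.66 and Sema4a by 1.79 on the log2 scale. The 2 higher members were 0 without BN1 1 or control 1 and 1 without BN1 2, BN1 3 or control 2. S100, annexin and galectin genes were lower for 8 of 18 and higher for 0. Lgals1, a galectin, had 234, 341 and 273 CPM in BN1 and 704, 786 and 552 CPM in control (log2 fold change -1.27), and S100a4, a calcium-binding protein of motile cells, averaged 5.03 CPM in BN1 and 37.5 CPM in control. Dpp4, a surface peptidase that trims chemokines, had 9.19, 3.09 and 2.93 CPM in BN1 and 215, 223 and 374 CPM in control, and 47.5 CPM on average in AFFN1. Its log2 fold change was -5.72, and -6.49 without BN1 1, and that of S100a4 was -2.90, and -3.59 without BN1 2.

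**Figure D5:**
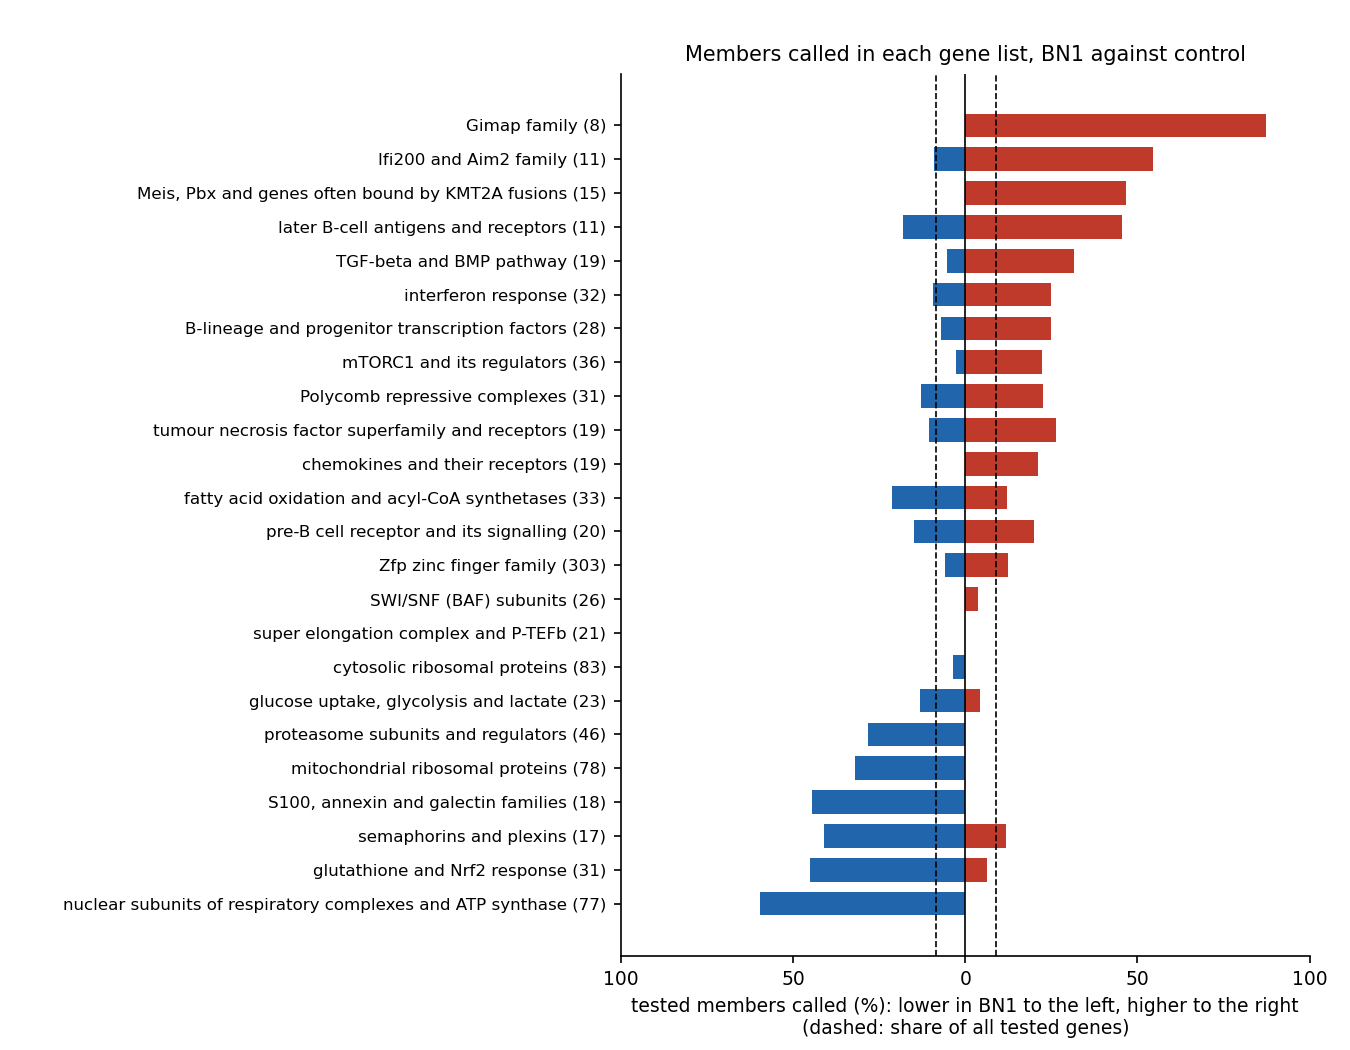
Bars give the share of tested members of a gene list called higher (right, red) or lower (left, blue) in BN1, with the number tested in brackets. The lists drawn are a selection from the 101 that were made. Dashed lines mark the shares of all tested genes, 8.83% higher and 8.53% lower. Respiratory, glutathione and S100 genes lie far to the left of the lower line, Gimap and Ifi200 genes far to the right of the higher one, and the super elongation complex has no bar.

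Growth pathways changed in a minority of members. In the TGF-beta and BMP pathway 6 of 19 were higher and 1 lower. Smad1, the effector of BMP receptors (ENSMUSG00000031681; mm10 chr8:79338395-79399518, minus strand), had 4.08, 6.45 and 4.58 CPM in BN1 and 0.507, 0.659 and 0.453 CPM in control, 9.3-fold higher (adjusted p = 8.42e-05). The receptors Tgfbr1 and Acvr1b rose by 0.52 and 0.71 on the log2 scale. Without BN1 1 or without control 2, 3 were higher, and 0 were lower without BN1 1, BN1 2 or control 3. Among 36 genes of mTOR complexes and their regulators 8 were higher and 1 lower. Fnip2, a nutrient-sensing partner of folliculin, had 23.2, 28.7 and 25.7 CPM in BN1 and 15.7, 14.2 and 14.3 CPM in control (log2 fold change 0.81), and Castor2, a paralog of an arginine sensor, rose by 0.82. The number higher was 2, 4, 4, 3 and 3 without BN1 1, BN1 2, BN1 3, control 1 and control 2.

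Cell cycle genes changed in part. Cdkn1a, the inhibitor p21 induced by p53 (ENSMUSG00000023067; mm10 chr17:29090976-29100727), had 145, 142 and 162 CPM in BN1 and 297, 283 and 291 CPM in control (log2 fold change -0.96, SE 0.08, adjusted p = 4.53e-05). Cdkn2a, whose locus encodes p16 and p19, had 24, 26.6 and 33.7 CPM in BN1 and 61, 47.1 and 52.7 CPM in control, and the p53 target Ccng1 fell by 0.79 on the log2 scale. Over the p53 list 3 of 29 were higher and 7 lower, with 2, 3, 2 and 3 lower without BN1 1, BN1 2, control 1 and control 2, and 0, 1 and 0 higher without BN1 1, control 1 and control 2. Of 13 tested genes of the D cyclins, their kinases and inhibitors, among them Cdkn1a and Cdkn2a, 1 was higher and 4 lower. Ccnd2, a D cyclin, had 133, 180 and 114 CPM in BN1 and 261, 304 and 204 CPM in control (log2 fold change -0.85, adjusted p = 0.0284), and its adjusted p was 0.101 without BN1 1, 0.0821 without BN1 3, 0.0803 without control 1 and 0.107 without control 2. Ccnd1, another D cyclin, had 2.93, 2 and 3.82 CPM in BN1 and 7.41, 7.47 and 5.71 CPM in control (log2 fold change -1.23, adjusted p = 0.0415), with 0.126 without BN1 1, 0.117 without BN1 2, 0.126 without control 1 and 0.108 without control 2. The number lower in that list was 2 without BN1 1, control 1 or control 2 and 6 without control 3, and 0 were higher without BN1 1, BN1 3, control 1 or control 2, in the 6 libraries alone, and with the replicate number as a block in the 9 libraries. Of 49 replication genes 7 were lower and 0 higher, among them Ccne1, the G1 cyclin E, at 26.2, 28.4 and 24.2 CPM in BN1 and 50.3, 51.1 and 32.4 CPM in control. That count was 2, 4, 3, 2, 3 and 18 without BN1 1, BN1 2, BN1 3, control 1, control 2 and control 3. Of 41 mitotic genes 1, the spindle checkpoint kinase Bub1, was higher (log2 fold change 0.69) and 0 were lower. Myc averaged 229 CPM in BN1 and 245 CPM in control and was not called (adjusted p = 0.772). Immediate early and heat shock genes, which respond to handling, summed to 3550 to 6620 CPM in BN1 and 4330 to 4850 CPM in control, with 1 of 25 higher.

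Some called genes were neighbours. Among tested genes in order along the chromosomes, 34 runs of at least 3 adjacent genes were called in the same direction, 15 higher and 19 lower, holding 109 genes. The runs span 32.8 to 11600 kb, and the number that would arise with no link between neighbours was not computed. Besides Gimap, Ifi200 and Hoxa genes these included Gbp5, Gbp7, Gbp3 and Gbp2 on chromosome 3, lower, with Gbp7 not called without BN1 1, BN1 3 or control 2 (adjusted p 0.0854, 0.0629 and 0.055). On chromosome 10 Ddt, Gstt3 and Gstt2, which lie within 66.2 kb and of which Gstt3 and Gstt2 are glutathione transferases, were lower, with log2 fold changes of -1.57, -5.62 and -1.73. On chromosome 6 the imprinted genes Sgce and Peg10 were lower with their neighbour Ppp1r9a: Sgce had 0.345, 0.322 and 0.191 CPM in BN1 and 8.74, 8.64 and 20.8 CPM in control, and Peg10 1.26, 1.93 and 2.36 CPM in BN1 and 18.9, 12.3 and 74.6 CPM in control. Without control 3 the log2 fold change of Peg10 was -3.06, against -4.26 with all libraries, and without BN1 1 that of Gstt3 was -8.02. H19, an imprinted noncoding RNA of chromosome 7, had 2.82, 3.87 and 0.892 CPM in BN1 and 71.5, 514 and 15.4 CPM in control. Its control values spread widely, and its call (adjusted p = 0.0366) was lost without BN1 1, BN1 2, BN1 3 or control 2, at adjusted p of 0.102, 0.0884, 0.0871 and 0.0882. Without control 2 its log2 fold change was -4.08, against -6.30 with all libraries. Counts of genes with near-identical copies, such as the Ifi200, Gbp, Schlafen and Gstt families, depend on how reads were shared among the copies.

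Some genes were read in 1 group only or nearly so. Of the called genes with at most 3 reads in a group, 25 were higher and 31 lower in BN1, 7 of them with 0 control reads and 14 with 0 BN1 reads. Ppp1r1c, a regulatory subunit of protein phosphatase 1, had 150 reads over the BN1 libraries and 0 over the control libraries, at least 48.4-fold higher against a floor of 3 counts over the group.

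BN1 also differed from the other fusion of the same day. AFFN1 against control called 1528 genes (12.7%) and BN1 against AFFN1 called 1349 (11.2%). Of the 2095 genes called in BN1 against control, 728 (34.7%) were also called between BN1 and AFFN1. The comparisons share libraries, so values are given side by side. Gnb4, a G protein subunit, averaged 55.7 CPM in BN1, 10.4 CPM in AFFN1 and 0.0988 CPM in control, with a log2 fold change over control of 8.94, and 9.54 without control 3. Lin28b, which blocks let-7 maturation in fetal blood progenitors, averaged 20.4 CPM in BN1, 2.41 CPM in AFFN1 and 0.21 CPM in control. Zfp827, a zinc finger protein, had 9.94, 9.86 and 11.7 CPM in BN1, with 0.76, 0.586 and 0.622 CPM in control, and was higher in BN1 than in AFFN1 by 3.80 on the log2 scale (adjusted p = 1.11e-05). Tspan2, a tetraspanin, had 6.55, 2.9 and 1.59 CPM in BN1 against 156, 137 and 192 CPM in control, with 141 CPM on average in AFFN1 (BN1 minus AFFN1 -5.24, adjusted p = 5.68e-05). Over control its log2 fold change was -5.43, and -6.16 without BN1 1. The respiratory list had a median log2 fold change against control of -0.40 in BN1, with 46 genes lower, and of -0.22 in AFFN1, with 5 lower, and 2 of its 77 genes differed between the fusions. For the glutathione list 14 were lower in BN1 and 2 in AFFN1, and 1 was higher and 8 lower in BN1 than in AFFN1.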

How the data were processed

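Poly(A) RNA of sorted CD45.2+ mouse bone marrow cells was sequenced from a stranded kit, per the labels' protocols. The deposited table holds expected counts per gene, and the submitters' processing notes name STAR, RSEM, DESeq2 and mm10, with versions, annotation and strand setting not given in the sources used here. These were rounded to whole counts. Genes were filtered with filterByExpr, scaled with TMM and tested with edgeR 4.0.16 (R 4.3.3, robust quasi-likelihood test) over the 9 day 6 libraries, and p-values were adjusted by Benjamini-Hochberg over the 12068 tested genes of 32285 in the table. The threshold for a call was an adjusted p of 0.05. Depth was 14182539 to 17702578 counts in the BN1 and control libraries, and pairs of libraries of 1 group differed by more than sampling noise (chi-square per degree of freedom 3.84 to 46.3). Intervals and floors cover counting error only. Coordinates and exonic lengths are from the GENCODE M21 annotation of mm10, and promoter windows from RefSeq on GRCm38.p6. The test was checked on simulated counts.

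Libraries with the same number in BN1 and control deviated together (correlations 0.202, 0.382 and 0.381), while those of AFFN1 with the other groups ranged from -0.409 to 0.262. The labels give the numbers no meaning, so the fit has no block, and fits that block on the replicate number are alternatives. The members and lists were chosen with earlier results of these data known. Genes were named where they were among the 20 largest changes in a direction with at least 5 CPM in the higher group, the 20 smallest p-values in a direction among changes under 2-fold of genes of at least 50 CPM, the 6 called members of a list with the smallest p, or members of runs of at least 3 neighbours. Brd9, Nutm1 and some list members that were not called were named too, with their values. Ndufs5, Ndufa11 and Ppp1r1c were chosen after their values were seen. Alternatives were the 6 libraries alone, RLE scaling, no filter, DESeq2 1.42.0, the block, each library left out, all libraries numbered 3 left out, and an offset for gene length. Some genes are not reported here.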

Additional observations from a re-analysis of the deposited data

How the results depend on the processing

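No called gene of the comparison changed sign in any alternative run, and 1121 to 2079 of the 2095 calls were kept. Leaving out each library in turn gave 1141 to 3495 calls, and 238 to 1442 in place of 682 among well-expressed genes under 2-fold. Leaving out all libraries numbered 3 gave 3890 and 1644, and the 6 libraries alone 1430 and 391. RLE scaling gave 2091 calls, no filter 1970, DESeq2 2633 and the length offset, chosen after seeing the data, 1980. With the replicate number as a block there were 1801 calls in 9 libraries and 2327 in 6. Under the block with 9 libraries 6 proteasome genes were lower in place of 13, and 2 pre-B receptor genes higher in place of 4. The causes of these shifts were not tested.

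Genes that were not called changed sign around 0. Hmox1 had a log2 fold change of -0.0241 and -0.0072 with the block in 9 and 6 libraries, -0.207 without the libraries numbered 3, and -0.267 to 0.184 with each library left out. The same range was -0.222 to 0.034 for Myc, -0.0594 to 0.0372 for Brd9 (0.0312 without the libraries numbered 3), -0.0809 to 0.228 for Vpreb1 and -0.052 to 0.114 for Igll1. At 3 libraries per group and this depth, small changes of weakly read genes were not detectable.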

Other observations

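Zinc finger and ciliary genes added single large changes. Of 303 tested zinc finger genes 38 were higher and 18 lower in BN1, with 22 higher without BN1 1 or without control 1. The share called was 18.5%, against 17.4% of all tested genes. Zfp518b had 8.79, 10.1 and 8.21 CPM in BN1 and 0.57, 0 and 0.17 CPM in control, and Zfp267 had 0 reads in BN1 and 527 in control, at least 181-fold lower against a floor of 3 counts over the group. Bbs1, a subunit of the BBSome that carries cargo into cilia, had 15.2, 13.9 and 14.4 CPM in BN1 and 1.33, 1.76 and 1.36 CPM in control (log2 fold change 3.29, edgeR adjusted p = 9.43e-07). Of 7 tested Ly6 genes, small membrane-anchored proteins, 3 were higher and 0 lower, in each fit without a library too. Ly6c2 had 205, 181 and 73.2 CPM in BN1 and 9.7, 6.15 and 7.47 CPM in control, and Ly6d, a mark of B-committed lymphoid progenitors, 182, 105 and 185 CPM in BN1 and 37.6, 19.9 and 57.1 CPM in control.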
